A study of Cucumis melo with 4 samples.

Results

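The 277 widest binding sites of the melon transcription factor CmNOR are described here, out of 5493 peaks in the authors' list (5.04%). They are the peaks wider than 655 bp and were chosen by the width column alone. The sites were mapped by DAP-seq (DNA affinity purification sequencing): a purified protein picks fragments out of naked genomic DNA in a tube, and the fragments it holds are sequenced. In 2 libraries the protein was MBP-His-CmNOR, that is CmNOR carrying maltose-binding protein and a histidine tag, and in the other 2 it was MBP-His, the tags without CmNOR. All 4 share protein from E. coli and genomic DNA of melon, Cucumis melo, and the labels give no cultivar or tissue. The authors' list is 1 combined table with no value for any single library, no enrichment and no p-value. Depth is therefore unknown, CmNOR was not compared with the tags, and repeats were not compared. Positions are those of the list, and its genome build is not named in the sources used here.

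CmNOR belongs to the NAC family, plant transcription factors with a conserved DNA-binding domain at the amino end, and is named after NON-RIPENING, a tomato gene needed for normal ripening of the fruit. DAP-seq reads binding to naked DNA, so the sites it lists are those the protein can hold without chromatin or partner proteins. The width of a called peak is the length of the stretch of DNA over which reads passed the caller's threshold, and peak callers such as MACS2 merge enriched stretches that lie close together. Width therefore does not count bound molecules. Enrichment per peak was not analysed here, and no sequence was read, so whether a wide peak holds several binding motifs was not tested.

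The widths of the members lay mostly close to the limit, with a long thin tail. Their median was 753 bp, the quartiles were 689 and 857 bp and the widest measured 1765 bp, against a median of 413 bp and a maximum of 655 bp in the 5216 narrower peaks. Of the members, 137 measured 750 bp or less and 29 measured 1000 bp or more. Together they covered 224 kb, or 9.14% of the bases under all peaks. The narrowest members were 4 peaks of equal width, 2 bp above the widest peaks left out, among them those of the transport ATPase gene MELO3C007086.2, the vesicle coat gene MELO3C000374.2 and the membrane protein gene MELO3C016716.2. Just outside were 3 peaks of 655 bp, assigned to the peptidase gene MELO3C035496.2, the membrane protein gene MELO3C006461.2 and the mitochondrial uncoupler gene MELO3C015890.2. As width chose the members, these values only describe them.

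**Figure D1:**
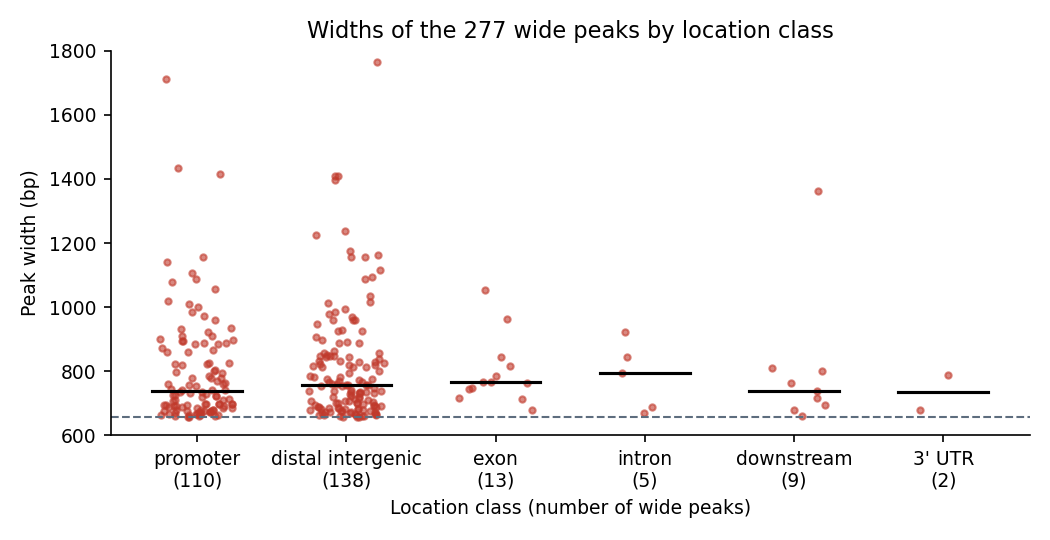
Width of each of the 277 wide peaks (vertical axis, bp) by the authors' location class (horizontal axis, with the number of peaks). Each point is 1 peak, black bars are medians and the dashed line is the width limit. Medians lie between 734 and 793 bp in every class shown, and 29 peaks reach 1000 bp.

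The wide peaks were divided between promoter and distal intergenic sites much as the narrower peaks were. The promoter class, which holds every peak whose nearest edge is within 3 kb of the assigned gene start, took 110 of the 277 wide peaks, 39.7% (95% exact Clopper-Pearson interval 33.9 to 45.7), and 40.3% (38.9 to 41.6) of the narrower peaks. Distal intergenic sites made up 138 wide peaks, 49.8% (43.8 to 55.9), against 46.5% (45.1 to 47.9) of the narrower ones. Both pairs of intervals overlap. In the 275 peaks of the next width step, 589 to 655 bp, the distal share was 41.1% (35.2 to 47.2) and the promoter share 42.5% (36.6 to 48.6). Here and below, intervals cover counting error only, no share was tested, and peaks are not replicates of a condition.

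Introns took a smaller share of the wide peaks and the first kb around the gene start a larger one, but neither share changed evenly with width. Introns beyond 3 kb from the gene start had 5 wide peaks, 1.81% (0.589 to 4.16), against 263 narrower peaks, 5.04% (4.46 to 5.67), and these intervals do not overlap. In the next width step, 589 to 655 bp, the intron share was 6.55% (3.93 to 10.1), above that of all narrower peaks. With the limit lowered to the widest 10%, introns held 4.17% (2.66 to 6.19) of wide and 4.96% of narrower peaks. Exons had 13 wide peaks, 4.69% (2.52 to 7.89), against 4.31% (3.78 to 4.90) of the narrower peaks. Exons and introns together gave 6.50% (3.90 to 10.1) of wide and 9.36% (8.58 to 10.2) of narrower peaks, and 12.4% (8.72 to 16.8) of the next width step. Within 1 kb of the gene start there were 64 wide peaks, 23.1% (18.3 to 28.5), against 17.3% (16.3 to 18.4) of narrower ones, and these intervals meet. The next width step had 17.1% (12.8 to 22.1) there. Between 1 and 2 kb there were 22, 7.94% (5.04 to 11.8), against 12.5% (11.6 to 13.4). The downstream class had 9 wide peaks (3.25%) and 3' UTRs had 2 (0.722%), against 3.07% and 0.748% of the narrower peaks. The 5' UTR class had 0 of 277, which allows a share of up to 1.08%, and 4 narrower peaks.

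**Figure D2:**
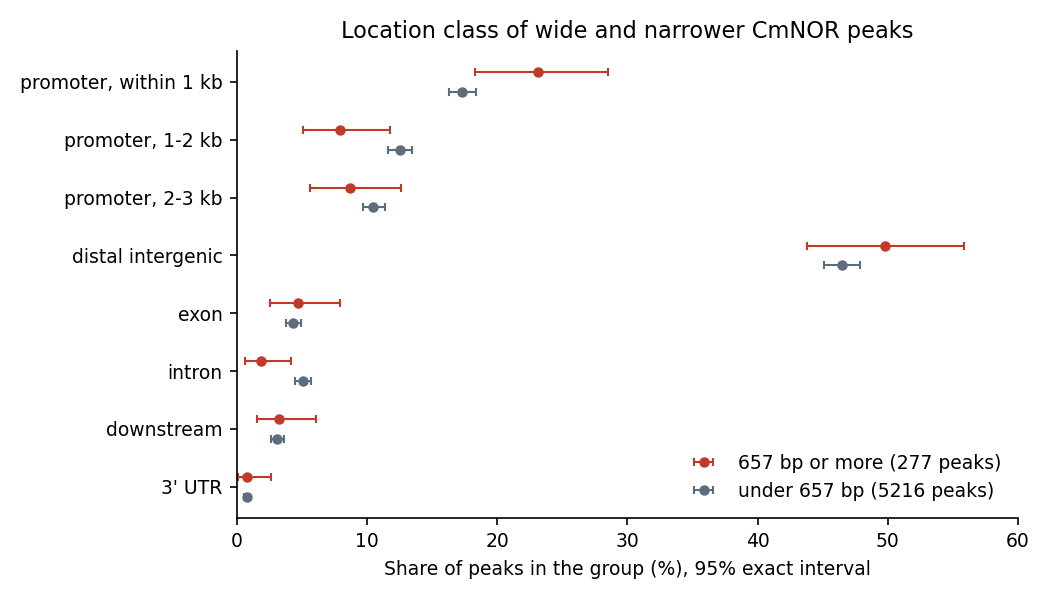
Share of peaks in each location class (horizontal axis, percent) for the 277 wide peaks (red, upper point of each pair) and narrower peaks (grey, lower point), with 95% exact intervals. The 1.81% of wide peaks in introns lies below the 5.04% of narrower peaks, while the distal intergenic intervals overlap.

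A wide peak reaches further, so its nearest edge comes closer to a gene start than its centre does. By peak centre, 51 wide peaks lay within 1 kb of the gene start, 18.4% (14.0 to 23.5), against 14.4% (13.5 to 15.4) of the narrower peaks, and these intervals overlap more than those by edge. Within 3 kb by centre the shares were 37.2% for wide and 38.4% for narrower peaks. On the 2 sides of the gene start the numbers were close: 25 wide centres lay in the first kb upstream and 26 in the first kb downstream, 9.03% and 9.39% of the wide peaks. The narrower peaks had 411 upstream (7.88%) and 342 downstream (6.56%). In the promoter class, 54 of the 110 wide peaks had their centre upstream of the gene, 45 inside it and 11 past its end, or 49.1%, 40.9% and 10.0%, against 50.7%, 35.9% and 13.4% of narrower promoter-class peaks.

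**Figure D3:**
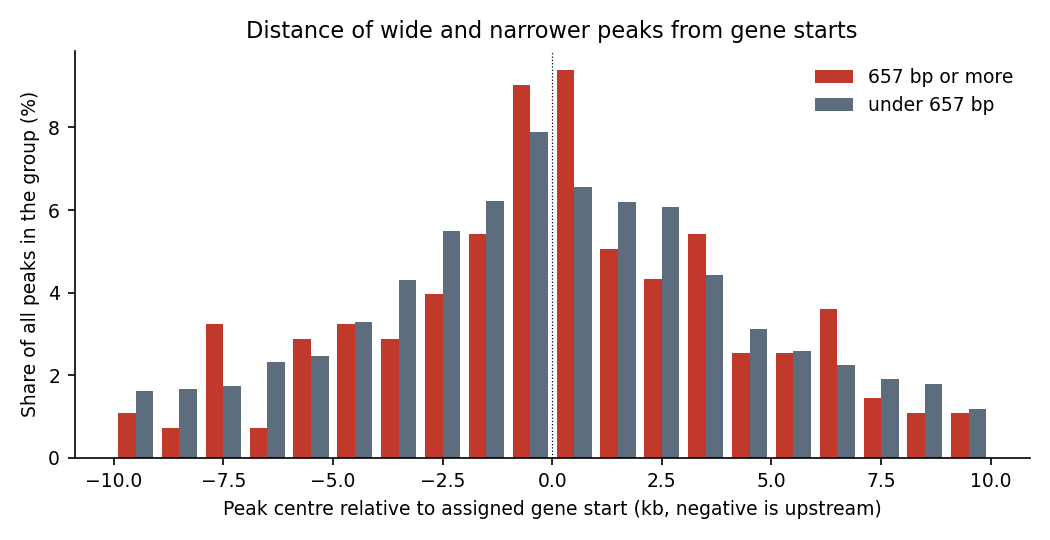
Share of all peaks in the group (vertical axis, percent) by position of the peak centre relative to the assigned gene start (horizontal axis, kb, 1 kb bins, negative is upstream). Red bars are the 277 wide peaks and grey bars the 5216 narrower peaks. Among wide peaks the fullest bins are the first kb on each side, with 9.03% upstream and 9.39% downstream.

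Of the wide peaks, 22 covered the start of their assigned gene, 7.94% (5.04 to 11.8), against 182 narrower peaks, 3.49% (3.01 to 4.02). A wider peak covers more bases, so the count was repeated at equal length. When each peak was cut to its central 300 bp, 4 wide peaks covered a gene start, 1.44% (0.395 to 3.66), against 2.55% (2.14 to 3.01) of narrower peaks. In the other 18 the start lay under a flank, and over all 22 the gene start was 203 bp from the peak centre at the median, with a range of 25 to 442 bp. The centre lay upstream of the start in 10 and downstream in 12. Their widths ran from 663 to 1078 bp.

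The genes whose starts lay under a wide peak had varied functions. The widest of these peaks, 1078 bp at 904908 to 905985 of chromosome 5, covered the start of MELO3C014618.2, annotated to the nucleosome, the unit of DNA wrapped on histones. MELO3C008864.2, a DNA replication gene on chromosome 8, had a peak of 778 bp over its start. A peak of 909 bp on chromosome 12 covered the start of MELO3C002101.2, a membrane-bound serine/threonine kinase gene, and one of 922 bp on chromosome 10 that of MELO3C020048.2, an ATP-driven transporter gene of the plasma membrane. MELO3C007687.2 on chromosome 8 encodes a phosphoenolpyruvate carboxykinase, an enzyme of gluconeogenesis, the making of sugar from organic acids, and its peak measured 690 bp. MELO3C014211.2, also on chromosome 8 and annotated with the response to water deprivation and to bacteria, had one of 699 bp.

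The other starts under wide peaks included those of a small GTPase signalling gene, MELO3C018482.2 (peak of 861 bp), a ribosomal protein gene, MELO3C008044.2 (727 bp), and a uridine kinase gene of nucleotide salvage, MELO3C013202.2 (663 bp). MELO3C018098.2, an electron transfer gene, had 678 bp, the zinc-binding ligase gene MELO3C019616.2 had 800 bp and the nucleic acid binding gene MELO3C015164.2 had 936 bp. The transferase gene MELO3C010476.2 had 753 bp. MELO3C021923.2 carries terms for pollen tube guidance and defense against fungi, and its peak was 670 bp. MELO3C011422.2 (mitochondrion, 794 bp) and MELO3C011018.2 (membrane, 708 bp) carry only a compartment. The other 6 genes have no GO term: MELO3C027643.2, MELO3C015054.2, MELO3C033768.2, MELO3C012188.2, MELO3C029451.2 and MELO3C028577.2. The peak of 933 bp at MELO3C015054.2 was the 1 wide peak that spanned a whole gene, at 9317714 to 9317938 of chromosome 2.

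The 13 widest peaks of the promoter class lay at genes of varied functions. The 3 widest are also among the 10 widest peaks of all: 1711 bp at MELO3C008968.2 and 1416 bp at MELO3C007423.2, both on chromosome 8, and 1434 bp on chromosome 11, 71 bp upstream of MELO3C020902.2, a gene without GO annotation. The next was a peak of 1155 bp inside MELO3C015872.2 on chromosome 1, a membrane protein gene annotated with defense against oomycetes, 2032 bp from its start. MELO3C006961.2, a membrane-bound kinase gene with terms for carbohydrate binding and pollen recognition, had a peak of 1089 bp at 7728520 to 7729608 of chromosome 6, starting 487 bp inside the gene. A malate transport gene, MELO3C017298.2, had 1107 bp at 24549002 to 24550108 of chromosome 2, 170 bp upstream of the gene start. The amino acid transporter gene MELO3C012281.2 had 1056 bp on chromosome 10, 548 bp upstream. MELO3C008011.2, a metal ion transport gene of the plasmodesmata, the channels between plant cells, had 999 bp on chromosome 8, 542 bp upstream. MELO3C018887.2 on chromosome 1, whose product bundles actin filaments, had 1010 bp, 449 bp upstream. The stress-response kinase gene MELO3C014736.2 had 1018 bp on chromosome 5, 1058 bp upstream. A peak of 984 bp lay inside the signal transduction gene MELO3C022131.2 on chromosome 9, 1358 bp from its start. MELO3C031853.2, with no GO term, had 1142 bp on chromosome 6, past the gene's end. MELO3C014618.2, described above, completes these 10.

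The wide peaks in exons and introns lay mostly in the gene they were assigned to, 15 of 18 or 83.3% (58.6 to 96.4), against 64.3% (59.9 to 68.6) of narrower exon and intron peaks. The widest exon peak, 1052 bp on chromosome 3, fell in exon 3 of 10 of MELO3C029935.2, a ubiquitin ligase gene, whose product tags proteins for breakdown. The next, 963 bp on chromosome 1, fell in exon 4 of 14 of MELO3C012727.2, an actin-bundling gene with the same GO terms as MELO3C018887.2, so 2 genes of that kind had wide peaks, 1 in an exon and 1 upstream. After these came 845 bp on chromosome 8, in exon 2 of 8 of a neighbouring gene and assigned to the membrane protein gene MELO3C024566.2. A peak of 786 bp lay in exon 6 of 24 of MELO3C010042.2, annotated with ribonuclease III activity, the cutting of double-stranded RNA. The widest of the 5 intron peaks, 921 bp on chromosome 6, lay in intron 8 of 13 of MELO3C019533.2 but was assigned to its neighbour MELO3C019532.2.

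Sites far from the start of the assigned gene took similar shares of the wide and the narrower peaks. Over 10 kb from the assigned gene start there were 82 wide peaks, 29.6% (24.3 to 35.4), against 26.4% (25.2 to 27.7) of the narrower peaks, and over 30 kb there were 23, 8.30% (5.34 to 12.2), against 7.55% (6.85 to 8.30). All 23 were classed distal intergenic, and 10 were over 100 kb from the gene start. The farthest, 968 bp on chromosome 5, was 412733 bp from the start of MELO3C031463.2. Distal sites also held 6 of the 10 widest peaks. Of these, 1410 bp on chr0 lay 15759 bp upstream of MELO3C028132.2, an ATP-binding protein gene, and 1396 bp on chromosome 6 lay 8834 bp upstream of MELO3C013782.2, annotated with protein dimerization. The median distance from peak edge to gene start was 4416 bp for wide peaks and 4196 bp for narrower ones, and the median length of the assigned gene was 2663 and 2630 bp.

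At the width limit used here, wide peaks were more frequent on chr0 than on the numbered chromosomes. In melon genome assemblies, sequence not assigned to a chromosome is usually gathered under that name. Of its 154 peaks 17 were wide, 11.0% (6.56 to 17.1), against 260 of 5339 on the 12 numbered chromosomes, 4.87% (4.31 to 5.48), and the intervals do not overlap. Put the other way, chr0 held 6.14% (3.62 to 9.64) of the wide and 2.63% (2.21 to 3.10) of the narrower peaks. With the limit lowered to take in the widest 10% of the list, the share on chr0 was 3.80% (2.37 to 5.76), against 2.69% of the rest. With the limit raised to 800 bp, it was 7.77% (3.41 to 14.7), or 8 of 103 peaks, against 2.71% of the rest. Among chr0 peaks, 15 of the 17 wide ones were distal intergenic, 88.2% (63.6 to 98.5), as were 75.2% (67.1 to 82.2) of the narrower ones. The sequence held 3 of the 29 members of 1000 bp or more, 10.3% (2.19 to 27.4), and this interval includes the 2.63% of narrower peaks. Among the 3 was the list's widest peak, 1765 bp at 3179849 to 3181613. The sources used here do not say how reads from such sequence were aligned, and its part in the widths was not tested.

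On the numbered chromosomes the share of peaks that were wide ran from 2.54% on chromosome 7, with 10 of 393 (1.23 to 4.63), to 6.78% on chromosome 3, with 32 of 472 (4.68 to 9.44). The intervals of these extremes just missed each other, and those of the other 10 overlap both. The median width of the wide peaks was 724 bp on chromosome 4 and 823 bp on chromosome 5, the lowest and highest. Chromosome ends held similar shares of wide and narrower peaks: the outer 20% of the span had 63 of 260 wide peaks, 24.2% (19.2 to 29.9), and 25.0% (23.8 to 26.2) of narrower peaks. Near the ends 60.3% (47.2 to 72.4) of wide and 62.2% (59.5 to 64.9) of narrower peaks were in the promoter class. In the interior those shares were 35.5% (28.9 to 42.6) and 33.6% (32.1 to 35.1). The promoter share was higher among wide than narrower peaks in 6 of the 12 chromosomes.

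**Figure D4:**
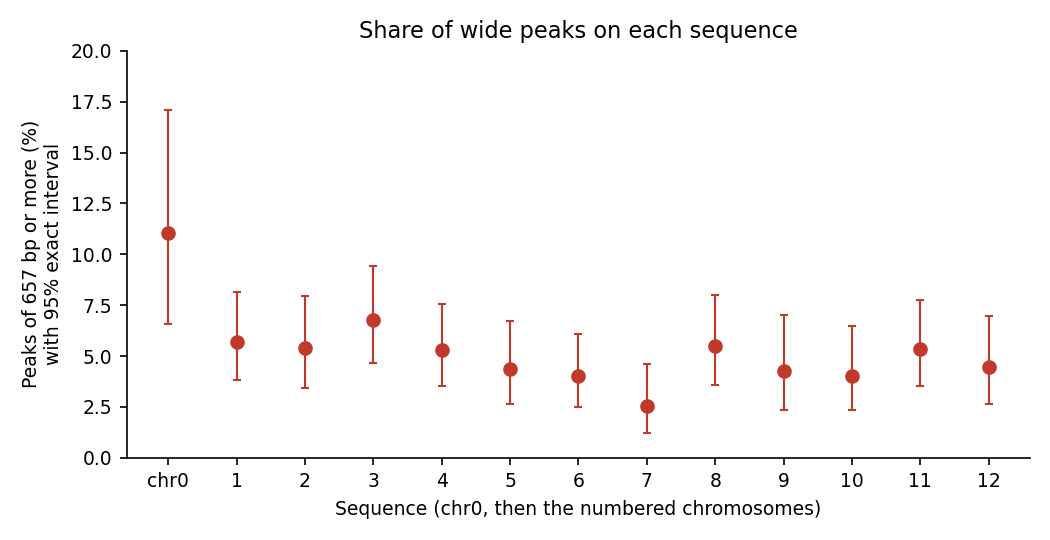
Share of the peaks on each sequence that are wider than 655 bp (vertical axis, percent, with 95% exact intervals), for chr0 and the 12 numbered chromosomes (horizontal axis). The value for chr0 is 11.0%, and the numbered chromosomes lie between 2.54% and 6.78%.

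The shares of wide and narrower peaks with a close neighbour had overlapping intervals. Measured from edge to edge, 50 of the 277 had another peak within 5 kb, 18.1% (13.7 to 23.1), against 17.0% (16.0 to 18.0) of narrower peaks, and the median gap to the nearest peak was 21242 bp for wide and 21454 bp for narrower peaks. The nearest neighbour of these 50 was itself wide in 4 cases and was assigned to the same gene in 40. Its median width was 456 bp, against 421 bp for all peaks of the list. The share at the same gene is not given here for narrower peaks, so the 40 do not set wide peaks apart. The list holds 5 overlapping pairs of peaks, and 0 of the 277 wide peaks overlapped another peak, which allows a share of up to 1.08%. Wide peaks followed one another along a chromosome in 13 cases, with gaps of 1667 to 200697 bp. Of the wide peaks, 9.39% (6.22 to 13.5) had a wide peak next to them, against 9.76% (8.97 to 10.6) of the narrower peaks.

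The 5 closest neighbours of wide peaks were 281 to 415 bp away, and all 5 were narrower peaks. A peak of 699 bp at 679290 to 679988 of chromosome 4 was followed after 281 bp by one of 544 bp, both assigned to MELO3C003375.2, a gene with terms for phosphorelay signalling and transcription, and the wide one lay 5201 bp upstream. On chromosome 2, peaks of 682 and 456 bp lay 308 bp apart and were both assigned to the RNA helicase gene MELO3C017528.2. Peaks of 690 and 310 bp lay 355 bp apart on chromosome 4, assigned to the transferase gene MELO3C009299.2 and MELO3C030737.2. Another pair on chromosome 4, of 660 and 629 bp, lay 358 bp apart at MELO3C009584.2. On chromosome 10, peaks of 741 and 436 bp lay 415 bp apart and were assigned to MELO3C012004.2, a xyloglucan gene of the cell wall, and to MELO3C012006.2.

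Of the 272 genes assigned to a wide peak, 4 had more than 1, and all these peaks were distal intergenic. The transaminase gene MELO3C027610.2 on chr0 had the list's widest peak, 6021 bp upstream, and another of 813 bp, 10390 bp upstream, with a narrower peak of 546 bp between them. MELO3C027471.2, also on chr0 and without a GO term, had peaks of 824 and 771 bp, 6821 and 4383 bp upstream. MELO3C006932.2 on chromosome 6 had peaks of 670 and 684 bp, 11069 and 7128 bp upstream. MELO3C011497.2 on chromosome 3, annotated with steroid dehydrogenase activity, had 3 wide peaks of 784, 737 and 706 bp among its 7 peaks, but these lay 66253, 294174 and 163454 bp upstream. Among all of them, 73 genes, 26.8% (21.7 to 32.5) of the 272, had a narrower peak as well as a wide one. Counted by peak, 28.9% (23.6 to 34.6) of wide and 30.4% (29.2 to 31.7) of narrower peaks were at a gene with another peak.

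By the Gene Ontology (GO) names of the assigned genes, wide peaks were spread over many functions. A GO term was present for 207 of the 272 genes, 76.1% (70.6 to 81.0), against 75.5% (74.2 to 76.8) of the genes with narrower peaks only. Of all 3406 genes with a GO term, 207 or 6.08% (5.30 to 6.93) had a wide peak, and this is the share against which the 17 keyword lists are set below. The lists overlap, and a gene can stand in several. Of the 272 genes, 110 had a wide peak of the promoter class, 40.4% (34.6 to 46.5). The promoter-class counts of single lists below are small and carry no interval, so they do not set a list apart. Neither the lists nor single terms were tested.

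**Figure D5:**
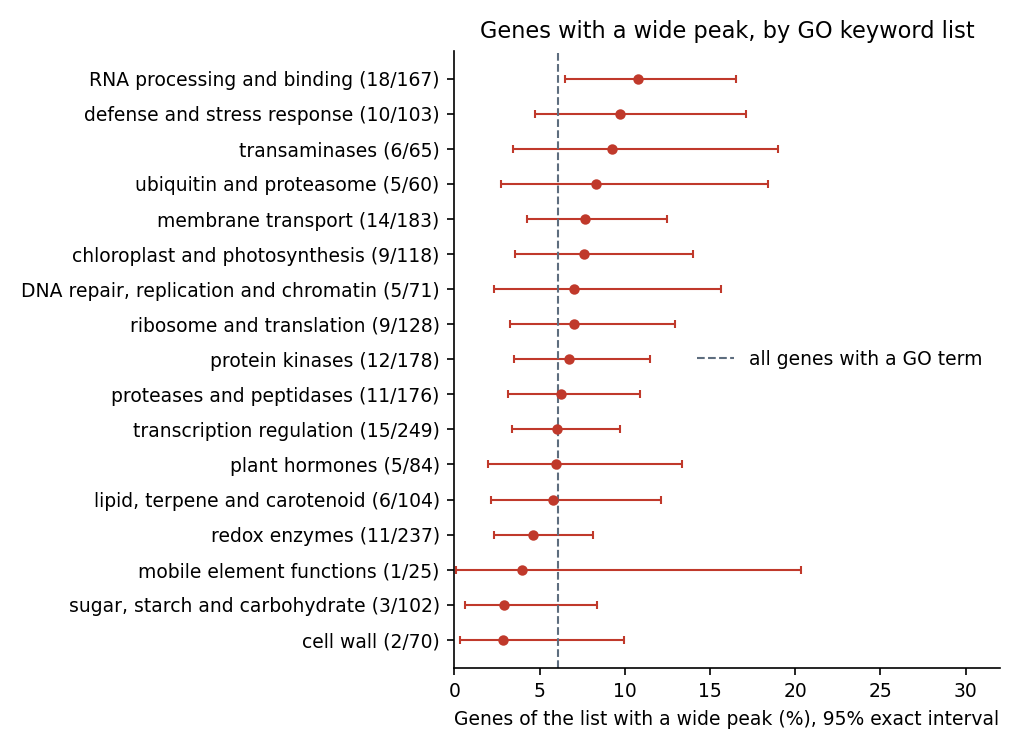
Share of the genes in each GO keyword list that had a wide peak (horizontal axis, percent, with 95% exact intervals), with the counts in parentheses. The dashed line is the 6.08% of all genes with a GO term. The interval for RNA processing and binding, 6.51 to 16.5, starts above the line at this width limit, and the other 16 intervals include it.

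Genes of RNA processing and binding had a wide peak in 18 of 167 cases, 10.8% (6.51 to 16.5). While 40.4% of all 272 genes with a wide peak had it in the promoter class, so did 6 of these 18. These genes made up 8.70% (5.24 to 13.4) of the GO-annotated genes with a wide peak and 4.66% of the others. At other limits the interval took in the share of the other genes: the list made up 5.99% (3.87 to 8.77) against 4.76% in the widest 10%, and 6.58% (2.17 to 14.7) against 4.86% at 800 bp or more. With promoter-class peaks alone it was 6.74% (2.51 to 14.1) against 4.85%. The widest peak, 1409 bp on chromosome 4, was distal to MELO3C018163.2, a chloroplast RNA modification gene. Besides the ribonuclease III gene above, a second gene with that activity, MELO3C013052.2, had a wide peak of 720 bp, and MELO3C012100.2, with ribonuclease T2 activity, had one of 699 bp starting 124 bp inside the gene. MELO3C025593.2, annotated with RNA modification and endonuclease activity, had one of 825 bp, 1794 bp upstream.

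The list also holds 4 aminoacyl-tRNA ligases, enzymes that load amino acids onto tRNA, out of 12 genes with that term in the table, or 33.3% (9.92 to 65.1). This term was singled out after its values were seen, from 44 terms carried by 4 or more genes with a wide peak. Intervals also started above the 6.08% of all GO-annotated genes for cytoplasm, 16 of 106 (8.88 to 23.4), and plastid, 8 of 54 (6.62 to 27.1). So did that of nucleotide binding, 17 of 157 (6.44 to 16.8), while those of most of the 44 included it. The 4 ligases are annotated for glycine (MELO3C003905.2, 980 bp), methionine (MELO3C019532.2, 921 bp), threonine (MELO3C022873.2, 759 bp) and leucine (MELO3C005060.2, 713 bp). Their wide peaks included 0 of the promoter class: they lay 48660 bp downstream, 4752 bp downstream in the intron of the neighbouring gene, 10082 bp upstream, and in exon 3 of 5 of the gene itself. Of all wide peaks 39.7% were in that class, and 4 genes are too few to be set apart by this. MELO3C003905.2 and MELO3C022873.2 were assigned 12 and 8 peaks in all.

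Transcription regulators, the list closest to CmNOR's own kind, had a wide peak at 15 of 249 genes, 6.02% (3.41 to 9.74). A wide peak with its centre in the 2 kb before the gene was found at 0 of the 15, an upper limit of 20.0%, which lies above the 14.7% (10.7 to 19.5) of all 272 genes with a wide peak, so this count does not set the list apart. The second widest of all peaks, 1711 bp on chromosome 8, was assigned to MELO3C008968.2, with its centre past the gene's end. The GO terms of this gene are transcription and binding of specific DNA sequences. A peak of 694 bp began 65 bp inside MELO3C011096.2, a transcription factor gene annotated with binding of AT-rich DNA. Peaks of 785 and 778 bp lay 2122 bp upstream of MELO3C011671.2 and 2987 bp upstream of MELO3C002624.2, both transcription factor genes. A peak of 899 bp was assigned to MELO3C012519.2, a histone-binding regulator gene, 22116 bp from its start.

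Hormone genes had a wide peak in 5 of 84 cases, 5.95% (1.96 to 13.3). It was in the promoter class for 3 of the 5, and for 40.4% of all 272 genes with a wide peak. MELO3C002777.2 on chromosome 12, a lipase gene of the salicylic acid pathway in systemic defense, had a peak of 797 bp starting 580 bp inside the gene. MELO3C016121.2 on chromosome 7, a transcription factor gene of brassinosteroid signalling, had one of 727 bp, 2276 bp upstream. The calmodulin-dependent kinase gene MELO3C009574.2 on chromosome 4 carries terms for calcium and abscisic acid, and its peak of 733 bp lay 2522 bp inside the gene. MELO3C015783.2, annotated with the response to abscisic acid and with P-bodies, where mRNA is stored and broken down, had 763 bp in exon 6 of 19. MELO3C007122.2, a cytokinin signalling and hormone transport gene, had 680 bp in a 3' UTR. Ethylene terms were on 0 of these 5, but how many of the 84 carry such a term is not given here. With 5 genes, this count does not set ethylene genes apart.

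Of the lists for ripening metabolism, cell wall genes had a wide peak in 2 of 70 cases, 2.86% (0.348 to 9.94). Sugar, starch and carbohydrate genes had 3 of 102, 2.94% (0.611 to 8.36), and lipid, terpene and carotenoid genes 6 of 104, 5.77% (2.15 to 12.1). A pectinesterase gene, MELO3C002316.2, whose product removes methyl groups from pectin, had a peak of 889 bp past its end, 6905 bp from its start. MELO3C012004.2, the xyloglucan gene above, counts in both the cell wall and sugar lists, and its peak lay past its end in the promoter class. The other sugar list genes, MELO3C021895.2 (738 bp) and MELO3C011531.2 (673 bp), encode glycosyl hydrolases. In the lipid list, the lipid-binding gene MELO3C019808.2 had 885 bp starting 301 bp inside the gene, and MELO3C031300.2, a lipid-binding regulator of transcription, had 847 bp.

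Membrane transport genes had 14 of 183, 7.65% (4.25 to 12.5), with 9 in the promoter class, and protein kinases 12 of 178, 6.74% (3.53 to 11.5), with 8. Over all 272 genes with a wide peak, 110 or 40.4% (34.6 to 46.5) had it in the promoter class. In the transport list the widest was the 1361 bp peak in the downstream class at MELO3C034180.2, followed by the amino acid transporter above. The anion channel gene MELO3C018824.2, on chromosome 1, had 759 bp, 2143 bp upstream, and the ion channel gene MELO3C006031.2 had 664 bp, 272 bp upstream. Among kinases, MELO3C017502.2 had 722 bp, 259 bp upstream.

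Defense and stress genes had 10 of 103, 9.71% (4.75 to 17.1). While 40.4% of all 272 genes with a wide peak had it in the promoter class, so did 6 of these 10. They include MELO3C015872.2, MELO3C014736.2 and MELO3C002777.2 above, and the peroxidase gene MELO3C009329.2, whose peak of 687 bp lay 907 bp upstream. Redox enzymes had 11 of 237, 4.64% (2.34 to 8.15), the widest at MELO3C019505.2, a heme and iron-sulfur enzyme gene (871 bp, starting 142 bp inside), and at MELO3C010508.2, a metal-binding oxidoreductase gene (831 bp).

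Transaminases had 6 of 65, 9.23% (3.46 to 19.0). While 40.4% of all 272 genes with a wide peak had it in the promoter class, so did 1 of these 6. Beside MELO3C027610.2 they were MELO3C029644.2 (1224 bp), MELO3C030160.2 (995 bp), MELO3C031482.2 (689 bp), MELO3C030188.2 (673 bp) and MELO3C016238.2 (669 bp), and all 6 carry the same 3 GO terms. Without chr0 there were 5.

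Ubiquitin and proteasome genes had 5 of 60, 8.33% (2.76 to 18.4). They included the protease gene MELO3C033520.2 (1239 bp) and MELO3C025964.2 (1163 bp), a gene of the SCF ubiquitin ligase annotated with seed dormancy, both distal. Proteases and peptidases had 11 of 176, 6.25% (3.16 to 10.9), led by MELO3C033520.2 again and by the serine carboxypeptidase gene MELO3C010046.2 (911 bp, 1456 bp upstream). Ribosome and translation genes had 9 of 128, 7.03% (3.27 to 12.9), led by the glycine and methionine tRNA ligases.

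Chloroplast genes had 9 of 118, 7.63% (3.55 to 14.0), led by MELO3C007423.2 (1416 bp, 592 bp upstream) and MELO3C018163.2 above. DNA repair, replication and chromatin genes had 5 of 71, 7.04% (2.33 to 15.7), led by the nucleosome gene MELO3C014618.2 and the histone-binding gene MELO3C012519.2. Mobile element functions had 1 of 25, 4.00% (0.101 to 20.4). That gene, MELO3C033388.2, carries terms for DNA integration and for a histone acetyltransferase complex, and its peak of 895 bp began 341 bp inside it. The remaining 91 genes with a wide peak and a GO term were in no list, 5.71% (4.62 to 6.96) of 1595.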

How the data were processed

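DAP-seq gave 4 libraries, 2 of MBP-His-CmNOR and 2 of the tags alone. The submitters' processing notes name MACS2, which calls peaks, and deepTools, with no version. Thresholds, aligner, build, annotation and the joining of libraries are not stated in the sources used here. The labels' protocols describe a genomic library amplified by PCR (ampDAP-seq) beside the standard one, without saying which gave the list. Peak width depends in part on the calling threshold and the merging of stretches. The rule of 657 bp or more (equal here to wider than 655 bp) therefore holds for this list alone. The deposited values are positions, lengths and distances in bp, per the file headers. Width equalled end minus start plus 1, and distances and the promoter class were recomputed, with 0 rows differing. Peak gaps and intervals were checked on simulated or recounted data. The gene identifiers matched 0 entries of the RefSeq table (USDA_Cmelo_AY_1.0), so genes are named by GO terms. No genome of the build was used here, so no sequence is shown.

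Members, lists and comparisons were chosen with earlier results of these data known. The values are not split by library, so nothing was tested: shares carry 95% exact Clopper-Pearson intervals, which assume independent peaks, and counts of 0 an upper limit of 3 counts. GO lists are keyword matches on term names. Named were the 10 widest peaks, the next 10 of the promoter class, all covering a gene start, up to 2 per list, those at the limit, genes with several wide peaks and the 5 closest pairs; others were chosen after their values were seen. The list called proteases and peptidases also holds a ubiquitin protease. Calculations ran in Python 3.11.15 with scipy 1.17.1 (intervals), pandas 2.3.3, numpy 2.4.6 and, for plots, matplotlib 3.10.9. Alternatives were the widest 10%, 800 bp or more, leaving out chr0, and other distance limits.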

Additional observations from a re-analysis of the deposited data

How the results depend on the processing

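No paired analysis was possible because the peak list holds no values of single libraries, and leaving out a repeat was not possible either. Of 31 alternative values for the 8 shares of wide peaks, 24 stayed within the main 95% interval. Among these, the outer 20% without chr0 could not differ, because the main share already leaves chr0 out. Most settings also share many peaks with the main one, which makes it easy to stay within the interval. Outside it were shares of a narrower or wider zone: 23.1% with an edge within 1 kb in place of the promoter class (17.3% of narrower peaks), 15.0% and 48.5% in the outer 5% and 20% at each chromosome end (12.7% and 46.4% of narrower peaks), and 8.30% and 30.0% with a neighbour within 2 and 10 kb (7.67% and 28.5% of narrower peaks). These differ by construction. The share covering a gene start was 1.44% by the central 300 bp, below the 2.55% of narrower peaks, which turns the direction round. With a limit of 800 bp, 14 of 103 peaks had a neighbour within 5 kb, 13.6% (7.63 to 21.8), against 17.1% of the other peaks. That interval includes both the share of the other peaks and the main 18.1%, and the difference was not tested. Of the 103 peaks of 800 bp or more, 8 were on chr0, 7.77% (3.41 to 14.7), against 2.71% of the other peaks. Of 68 alternatives for the GO lists, all added after the data were seen, 65 stayed within the interval. The exceptions were all at 800 bp or more, where 76 GO-annotated genes had such a peak. Hormone genes were 0 of 76 (0 to 4.74%), against 2.52% of the other genes. Sugar genes were also 0 of 76 (0 to 4.74%), against 3.06%. Redox genes were 2 of 76, 2.63% (0.320 to 9.18), against 7.06%. Each of these intervals includes the share of the other genes. The share of RNA processing and binding genes kept its direction in all 4, but its interval included the share of the other genes in the widest 10%, at 800 bp or more and with promoter-class peaks alone. Of 6 alternatives for the intron share and the share within 1 kb, also added after the data were seen, 5 stayed within the interval and the intron share was 4.17% in the widest 10%. Depth is unknown, so weak and strong peaks cannot be told apart.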
